A study of Mus musculus with 4 samples.

Results

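The 59 genes described here encode proteins of mitosis and cytokinesis, and were measured in the left ventricle of KDM5B KO and WT mice after myocardial infarction (MI). They were selected by name, with earlier results of the same arrays known, and their KO and WT values entered that selection, so every KO to WT difference below is a description and none is tested on the members. All 59 names were found on the array, where 112 of the 41174 probes that are no controls carry one of them, and each gene is represented by its brightest probe over the 4 arrays. Of the 59 probes, 57 were well above background on all 4 arrays. The other 2, for Ttk and Dlgap5, are kept in the counts and medians over all 59 genes. Their folds are given against the limit of the WT arrays, which is a bound for Dlgap5 only.

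The mice were described as males of 8 to 10 weeks on a C57BL/6 background, infarcted by tying the left anterior descending artery, and the left ventricle was taken on day 7. KO animals carried a CRISPR/Cas9 deletion within the JmjC domain of Kdm5b, the catalytic domain of this histone H3 lysine 4 demethylase, with a frameshift, and WT animals were the controls. Each group had 2 arrays, numbered 2 and 3 in the sample titles, and they are called WT 2, WT 3, KO 2 and KO 3. No sham-operated heart is among the samples, and whether an array held RNA of 1 mouse or of a pool is not given in the sources used here.

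Entry into mitosis is driven by cyclin B bound to CDK1, and the Aurora and Polo-like kinases act beside it on the spindle and the chromosomes. Condensin and topoisomerase II shape the chromosomes, kinetochores attach them to microtubules, and the spindle checkpoint restrains the anaphase-promoting complex (APC/C) until all are attached. The cleavage furrow then separates the daughter cells. Most adult cardiomyocytes have left the cell cycle, while fibroblasts, endothelial cells and immune cells divide in the healing infarct. Many of these genes are transcribed only late in the cell cycle, through promoters with CCAAT boxes bound by NF-Y and a cell cycle homology region (CHR) bound by the DREAM and MuvB complexes.

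The promoters of the members shared such letters. The letters were not used to select the members, but a selection by function and by KO and WT values is not independent of promoter control. RefSeq promoter windows of assembly GRCm38.p6, from 250 bases before to 50 after the start site, matched 48 of the 59 genes in 51 windows. None was matched for Ccna2, Cdc25c, Pbk, Aurkb, Incenp, Smc4, Cdca2, Tpx2, Dlgap5, Kif20a and Shcbp1. Searched on both strands, CCAAT occurred in 37 of the 51 windows (72.5%), against 37.4% of all 32851 windows. TTTGAA, the CHR letters, occurred in 39 of 51 (76.5%), against 17.9% of all windows. Both motifs were present in 32 windows (62.7%), against 6.95% of all windows, and matches that share a base were not left out. Windows of other mitosis genes held both in 23.9% of 88 cases and those of S phase genes in 11.3% of 62, both from lists described below. Within 50 bases of the start site on either side, TTTGAA was found in 68.6% of the member windows and in 4.94% of all windows. CCAAT was found in the 100 bases before the start in 62.7% of the member windows and 18.9% of all windows. A match of letters is a description and shows no binding.

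The 4 windows below are shown, taken from 12 genes chosen by name, which are those of the plot of signals by array. For each role class in which such a gene held both motifs, the window with most matches is given. They lie at chr10:69352863-69353162 (Cdk1), chr4:118437294-118437593 (Cdc20), chr11:99024140-99024439 (Top2a) and chr3:27153805-27154104 (Ect2), all on the minus strand and written 5′ to 3′ along the gene. Capitals mark CCAAT or its complement ATTGG, and TTTGAA or its complement TTCAAA. The Cdk1 window held 3 CCAAT and 2 TTTGAA matches, that of Cdc20 2 and 1, that of Top2a 6 and 2, and that of Ect2 3 and 2. Ect2 has a further window that starts 24 bases away and holds the same matches.
Cdk1: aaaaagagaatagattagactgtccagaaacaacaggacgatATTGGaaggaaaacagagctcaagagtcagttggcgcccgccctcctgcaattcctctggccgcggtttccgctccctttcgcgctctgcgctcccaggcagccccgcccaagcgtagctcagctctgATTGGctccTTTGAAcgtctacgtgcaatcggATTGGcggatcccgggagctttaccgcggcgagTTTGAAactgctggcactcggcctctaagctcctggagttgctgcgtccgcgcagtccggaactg
Cdc20: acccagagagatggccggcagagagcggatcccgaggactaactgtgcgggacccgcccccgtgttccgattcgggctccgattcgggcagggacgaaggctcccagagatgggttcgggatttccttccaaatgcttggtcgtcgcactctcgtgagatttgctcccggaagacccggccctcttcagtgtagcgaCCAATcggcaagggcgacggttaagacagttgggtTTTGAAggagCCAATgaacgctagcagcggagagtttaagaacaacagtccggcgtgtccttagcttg
Top2a: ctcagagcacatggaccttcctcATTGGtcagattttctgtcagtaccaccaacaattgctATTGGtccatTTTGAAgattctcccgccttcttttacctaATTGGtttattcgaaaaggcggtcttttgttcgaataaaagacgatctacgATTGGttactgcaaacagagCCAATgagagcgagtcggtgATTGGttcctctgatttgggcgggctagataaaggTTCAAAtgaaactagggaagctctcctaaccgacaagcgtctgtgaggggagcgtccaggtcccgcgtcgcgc
Ect2: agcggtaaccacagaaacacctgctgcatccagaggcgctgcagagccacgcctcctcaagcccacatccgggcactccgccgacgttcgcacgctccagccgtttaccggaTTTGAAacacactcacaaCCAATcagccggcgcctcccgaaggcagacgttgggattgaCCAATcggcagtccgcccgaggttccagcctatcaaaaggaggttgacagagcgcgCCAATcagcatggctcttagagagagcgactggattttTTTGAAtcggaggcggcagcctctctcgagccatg
In Cdk1, Cdc20 and Top2a the last TTTGAA starts 15, 18 and 23 bases before the start site, and in Ect2 it starts 15 bases after it. Of the other genes among these 12 with a window, Plk1, Bub1b, Mki67 and Kif23 also held both motifs, Anln held TTTGAA alone, Ccnb1 held CCAAT alone, and Birc5 held neither.

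**Figure D1:**
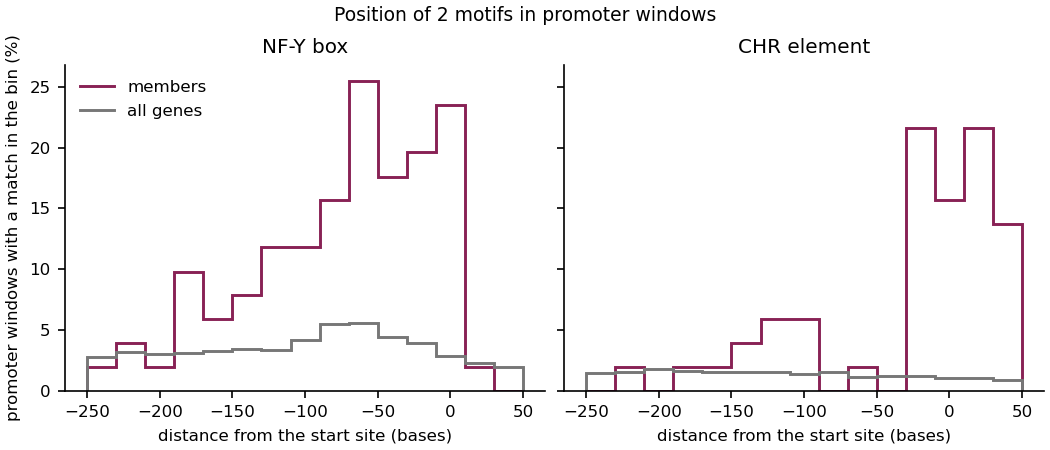
Share of promoter windows (y axis, percent) with a match of the NF-Y box (left) or the CHR element (right) in each 20-base bin of distance from the start site (x axis), for the 51 windows of the members and the 32851 windows of all genes. The member matches of the CHR element gather between 30 bases before and 50 bases after the start site, where 35 of the 51 windows hold one within 50 bases of it, and those of the NF-Y box lie mostly upstream.

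All values below are log2 processed signals minus the 75th percentile of the same array, so 0 is the level of that percentile and a difference of 1 is a 2-fold difference. Signals of different probes are not comparable, and levels are therefore compared only within a gene. Between 68.1% and 72.0% of probes per array were well above background, and the 75th percentile was lowest on KO 2 at 607.6 and between 876.3 and 976.1 on the others. All 4 arrays lay on 1 slide, WT at positions 1 and 2 and KO at positions 3 and 4, so position and genotype cannot be told apart. Kdm5b itself read -0.87 and -1.81 on WT 2 and WT 3, and -2.40 and -2.26 on KO 2 and KO 3, below both WT arrays in both KO arrays, with the place of its probe relative to the deletion not determined. The labels give male mice, but Xist, which is transcribed from the inactive X chromosome of females, was at 4.36 on WT 2 and 4.0 on KO 2 and at background on WT 3 and KO 3, while Y-linked Ddx3y had the opposite pattern. Each array number thus holds 1 array of each genotype with the same Xist and Ddx3y state, and differences are given for each number as well as for the means.

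The median over the 59 genes was -0.86 and -1.25 on WT 2 and WT 3, and -0.49 and 0.09 on KO 2 and KO 3. The KO arrays were the higher ones at both numbers, and the arrays of one genotype were also apart. For 44 of the 59 genes the 4 arrays fell in exactly this order, KO 3 above KO 2 above WT 2 above WT 3, which 3.0% of all tested probes did. KO 3 was the highest array for 54 genes and WT 3 the lowest for 51. Over the 59 genes the median KO minus WT difference was 0.92, a 1.89-fold higher signal, against 0.02 over the 28292 tested probes. The middle of the set, between its lower and upper quartiles, lay within 0.79 to 1.02, and the same quartiles of all tested probes were -0.21 and 0.22.

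The difference was unequal at the 2 numbers. KO 2 minus WT 2 had a member median of 0.41, or 1.32-fold, and KO 3 minus WT 3 a median of 1.42, or 2.67-fold, while the medians over tested probes were 0.01 at each number. The difference was larger at number 3 for 57 of the 59 genes, the exceptions being Dlgap5 and, by its brightest probe, Bub1. Dlgap5 was not well above background on either WT array. KO was higher at number 2 for 54 genes and at number 3 for 58, against 51.1% and 52.0% of tested probes, and under the other scalings for 53 to 56 genes and for 58. At both numbers it was higher for 54 genes, against 24.8%. More than 2-fold higher at number 2 were 2 genes, against 6.19% of tested probes, and at number 3 51 genes, against 2.23%. Without KO 3 the median difference of the means was 0.55 instead of 0.92, and without KO 2 it was 1.25.

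Both KO arrays were above both WT arrays for 52 of the 59 genes, against 13.1% of tested probes, and both were below for 0, against 10.9%. With normexp background correction these were 55 genes against 30.1% of tested probes, and 0 against 5.63%. The mean KO signal was over 2-fold higher for 22 genes, against 1.0% of tested probes, and over 2-fold lower for 0. With normexp it was over 2-fold higher for 5 genes, against 0.293% of tested probes. Since the members were chosen on this contrast, these counts describe them and carry no evidence of their own. In the limma fit over all tested probes, 0 of 28292 probes (0%) and 0 of the 58 tested members were called at an adjusted p under 0.05 with a fold change over 2. The lowest adjusted p of any probe was 0.9999, and 410 probes (1.45%) had an unadjusted p under 0.05. With 2 arrays against 2, an exact permutation test has a smallest two-sided p of 0.333. In these bulk samples, more dividing cells and more RNA per dividing cell cannot be told apart.

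**Figure D2:**
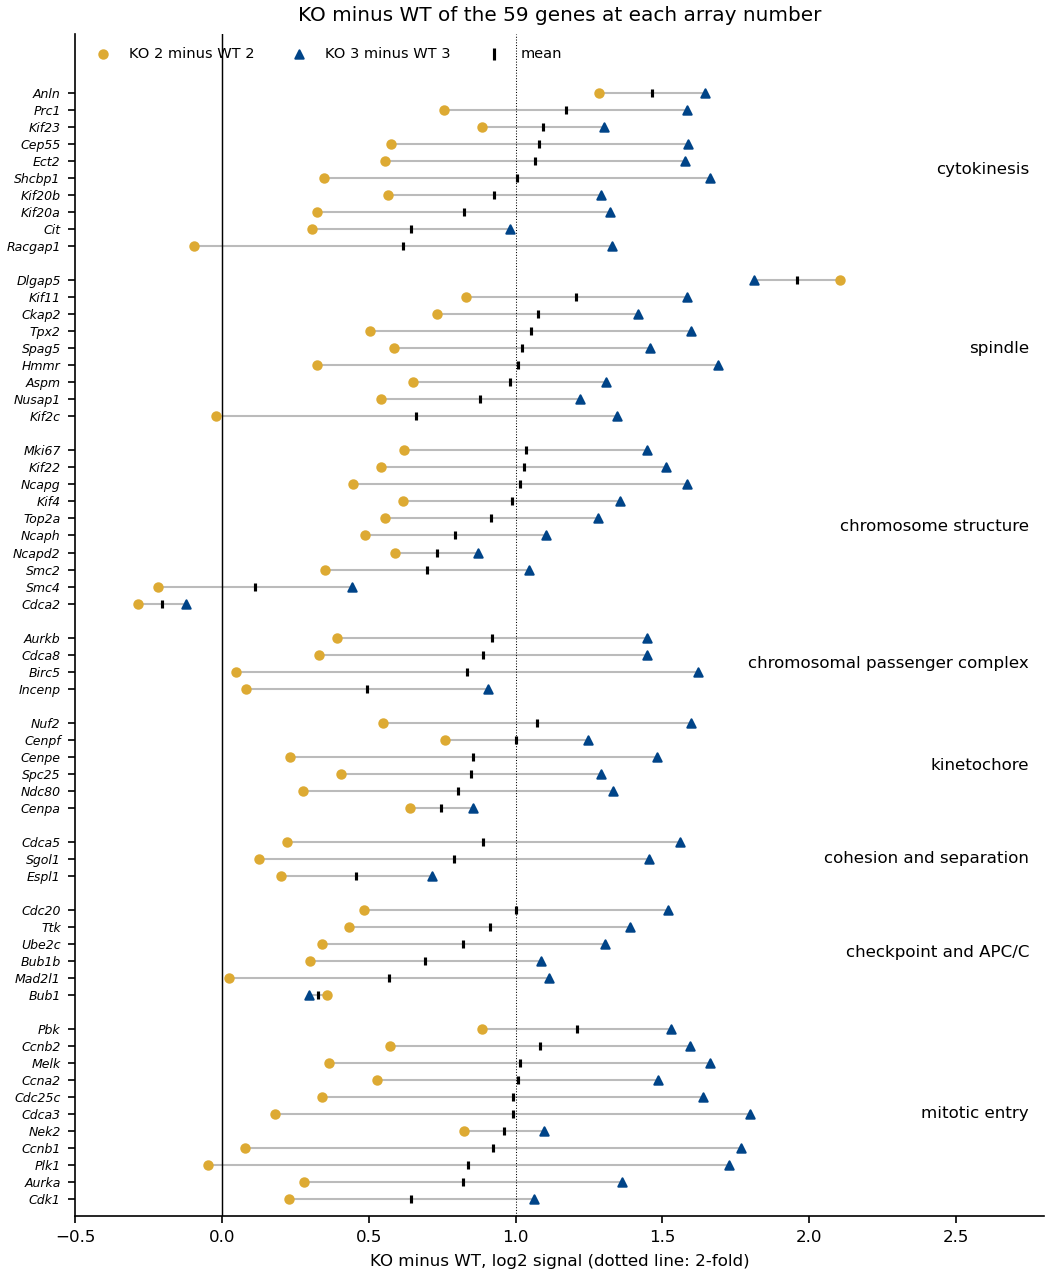
KO minus WT difference in log2 signal (x axis) of each of the 59 genes (y axis, grouped by role), for KO 2 minus WT 2 (circles), KO 3 minus WT 3 (triangles) and the mean of both (bars), with 1 array per genotype at each number. The triangles lie to the right of the circles for 57 genes, 54 circles lie above 0, and Cdca2 is the gene with both symbols below 0.

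The 11 genes of mitotic entry had a median difference of 0.99, with 0.34 at number 2 and 1.59 at number 3. In 10 of them both KO arrays were above both WT arrays, against 13.1% of tested probes. Cdk1, the kinase at the centre of mitotic entry, was at -1.68 and -1.54 on WT 2 and WT 3, and -1.45 and -0.48 on KO 2 and KO 3. Its mean difference of 0.65 ± 0.41 (limma SE, n = 2 arrays per group) was the lowest of the class, and most of it lay in KO 3. Ccnb1, its cyclin B1 partner, was at -2.26 and -2.71 on WT 2 and WT 3, and at -2.18 and -0.94 on KO 2 and KO 3. The KO 2 value was 0.08 above that of WT 2, and KO 3 was 1.77 above WT 3, one of the widest gaps between numbers in the set. Plk1, the Polo-like kinase that acts from mitotic entry to cytokinesis, was at 1.26 and 0.80 on WT 2 and WT 3, and 1.21 and 2.53 on KO 2 and KO 3. Its genotypes overlapped, with KO 2 0.05 below WT 2. Pbk, a mitotic serine/threonine kinase, had the highest difference of the class at 1.21 ± 0.26, from -1.41 and -1.80 on the WT arrays to -0.52 and -0.27 on the KO arrays. The other seven genes, cyclins Ccna2 and Ccnb2, the phosphatase Cdc25c, the kinases Aurka, Nek2 and Melk, and Cdca3, lay between 0.82 and 1.08.

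The 6 genes of the spindle checkpoint and the APC/C had a median difference of 0.76. Bub1b, a component of the mitotic checkpoint complex, was at -2.37 and -2.44 on WT 2 and WT 3, and -2.07 and -1.35 on KO 2 and KO 3. Its WT arrays lay within 0.07 of each other, and the mean difference was 0.69 ± 0.33. Cdc20, the APC/C activator that the checkpoint holds back, was at 1.39, 1.01, 1.87 and 2.53 on WT 2, WT 3, KO 2 and KO 3, and had the highest difference of the class at 1.0 ± 0.34. Bub1, the checkpoint kinase at kinetochores, had the lowest, 0.33 ± 0.30, with overlapping genotypes (0.19 and -0.20 on WT, 0.55 and 0.09 on KO). A dimmer Bub1 probe gave 0.88, with 0.44 at number 2 and 1.33 at number 3, and both KO arrays above both WT arrays. Mad2l1, the checkpoint protein MAD2, differed by 0.57, and Ube2c, the ubiquitin-conjugating enzyme of the APC/C, by 0.82. Ttk, the checkpoint kinase MPS1, was well above background on KO 3 alone, and its KO mean was 1.36-fold above the limit of the WT arrays. That mean takes in a KO 2 value not well above background, so the fold is no strict bound.

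Of the 3 genes of cohesion and separation, Cdca5, the cohesion factor sororin, had the highest difference, 0.89 ± 0.45, from -0.63 and -0.91 on the WT arrays to -0.41 and 0.65 on the KO arrays. A dimmer Cdca5 probe went the other way, at -0.52 ± 0.62. Espl1, the protease separase that cuts cohesin, had the lowest, 0.46 ± 0.43, and its genotypes overlapped, with -2.61 and -2.18 on WT 2 and WT 3 and -2.41 and -1.47 on KO 2 and KO 3, and without KO 3 the difference was -0.01. Sgol1, which protects centromeric cohesin, differed by 0.79.

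All 6 kinetochore genes had both KO arrays above both WT arrays, against 13.1% of tested probes, with a median difference of 0.85. Nuf2, a subunit of the NDC80 complex that binds microtubules, had the highest difference at 1.07 ± 0.35 (-0.47 and -0.80 on WT, 0.08 and 0.80 on KO). Cenpa, the histone H3 variant of centromeres, had the lowest at 0.75 ± 0.35 (0.32 and -0.33 on WT, 0.96 and 0.53 on KO). For Cenpa and for Cenpf, a protein of the outer kinetochore, KO 2 was the highest array, unlike in most of the set. Ndc80 and Spc25, of the same complex as Nuf2, differed by 0.80 and 0.85, and the kinesin Cenpe by 0.86.

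The same held, against 13.1% of tested probes, for all 4 genes of the chromosomal passenger complex, which corrects faulty attachments and guides cytokinesis. Its kinase Aurkb was at -2.46 and -2.71 on WT 2 and WT 3, and -2.06 and -1.26 on KO 2 and KO 3, a mean difference of 0.92 ± 0.37. Birc5, the subunit survivin, was at 2.55, 2.12, 2.60 and 3.74 on WT 2, WT 3, KO 2 and KO 3, and KO 2 was 0.05 above WT 2. This order of KO 2 and WT 2 turned under quantile normalization and in the authors' table, in which Birc5 and Incenp were lower on KO 2. Incenp, the scaffold of the complex, had the lowest difference, 0.49 ± 0.35, with 2.26 and 2.21 on the WT arrays and 2.34 and 3.12 on the KO arrays. Cdca8, the subunit borealin, differed by 0.89.

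The 10 genes of chromosome structure held both the commonest proliferation marker and the 2 genes with the lowest differences of the whole set. Mki67, which coats mitotic chromosomes and encodes the antigen Ki-67, was at 2.14 and 1.73 on WT 2 and WT 3, and 2.76 and 3.18 on KO 2 and KO 3. Its difference of 1.03 ± 0.29 was the highest of the class, with 0.62 at number 2 and 1.45 at number 3. Top2a, the topoisomerase that untangles sister chromatids, was at -1.44, -1.74, -0.89 and -0.46, a difference of 0.92 ± 0.28. Among the 5 condensin I subunits, Ncapg, Smc2, Ncapd2 and Ncaph differed by 0.70 to 1.01 with no overlap of genotypes. Smc4, the fifth, was at 1.64 and 1.74 on WT and 1.42 and 2.18 on KO, a difference of 0.11 that both of its probes gave and that was -0.27 without KO 3. The chromosome-binding kinesins Kif4 and Kif22 differed by 0.99 and 1.03.

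Cdca2, the chromatin-bound phosphatase subunit Repo-Man, was the one member with a lower KO mean. Its brightest probe read 1.08 and 1.30 on WT 2 and WT 3, and 0.79 and 1.17 on KO 2 and KO 3, a difference of -0.20 ± 0.26. The 2 dimmer Cdca2 probes gave 0.88 ± 0.28 and 1.07 ± 0.31, with both KO arrays above both WT arrays. The brightest probe carries no RefSeq transcript in the files, unlike the others, and with the mean of all 3 probes Cdca2 stood at 0.58. The 3 probes lie on the minus strand of chromosome 14 of mm9, at chr14:68317297-68317356, chr14:68316101-68316160 and chr14:68295097-68295156 in order of brightness, and are shown because the sign of this gene depends on them.
Cdca2 brightest probe: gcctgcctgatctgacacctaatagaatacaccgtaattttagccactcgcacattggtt
Cdca2 second probe: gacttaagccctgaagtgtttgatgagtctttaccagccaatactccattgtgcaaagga
Cdca2 dimmest probe: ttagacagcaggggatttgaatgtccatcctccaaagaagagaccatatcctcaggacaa
Whether these positions are exonic was not determined, as no annotation of this build was used.

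Over all 59 genes, Cdca2 included, further probes mostly repeated the brightest one. Of the 59 genes, 39 had more than 1 probe, which gave 53 further probes, 34 of them tested. The tested ones had a median difference of 0.88, and 33 of 34 were higher in KO, against 14802 of all 28292 tested probes. They read genes chosen on this contrast, so the count is a description and no separate evidence. A probe could also pass the filter through 1 group alone. The further probes of Nusap1 and Ect2, both higher in KO, were well above background on only 2 and 3 arrays. The difference lay within 0.2 of that of the brightest probe for 26 of the 34. Probes of Kif20a and of Kif4 overlap in position and are not separate measurements.

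The 9 spindle genes had a median difference of 1.02, and 6 of them had a KO mean over 2-fold higher, or 0 with normexp, Dlgap5 included. Kif11, the motor Eg5 that keeps spindle poles apart, was at -2.89 and -3.33 on WT 2 and WT 3, and -2.06 and -1.75 on KO 2 and KO 3, a difference of 1.21 ± 0.28. Kif2c, the microtubule-depolymerising kinesin MCAK, had the lowest difference of the class, 0.66 ± 0.46. It was at -3.96 and -4.24 on WT 2 and WT 3 and at -3.98 and -2.89 on KO 2 and KO 3, so that WT 2 and KO 2 differed by 0.02. Dlgap5, the spindle factor HURP, was well above background on the 2 KO arrays only, and its KO mean was at least 3.81-fold above the WT limit. It was one of 2 genes over 2-fold higher at number 2, where its WT 2 value was not well above background. Tpx2, which activates Aurora A on the spindle, differed by 1.05, and Aspm, Hmmr, Nusap1, Spag5 and Ckap2, all spindle-associated, by 0.88 to 1.08.

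The 10 cytokinesis genes had a median difference of 1.04, also with 6 over 2-fold, or 2 with normexp. Anln, anillin, which ties the actomyosin ring to the furrow, was at -4.01 and -3.69 on WT 2 and WT 3, and -2.73 and -2.05 on KO 2 and KO 3. Its difference of 1.46 ± 0.34 was the highest in the set among genes well above background on all arrays, and it was the other gene over 2-fold higher at number 2, with 1.28 there and 1.65 at number 3. Its second probe gave 0.76 ± 0.35. Ect2, the exchange factor that activates RhoA at the furrow, was at -1.52, -1.68, -0.97 and -0.10 on WT 2, WT 3, KO 2 and KO 3, a difference of 1.07 ± 0.38. Kif23 and Racgap1 form the centralspindlin complex that recruits Ect2. Kif23 was at -1.50, -1.63, -0.61 and -0.33, a difference of 1.09 ± 0.23 with WT and KO arrays well apart. Racgap1 was at -2.44 and -2.58 on WT 2 and WT 3 and at -2.53 and -1.25 on KO 2 and KO 3, a difference of 0.62 ± 0.51, the lowest of the class. Its genotypes overlapped on this probe, and without KO 3 the difference was -0.02. A dimmer Racgap1 probe gave 0.77 ± 0.40, with both KO arrays above both WT arrays. Prc1, which bundles the central spindle, differed by 1.17, and Cep55, Cit, Kif20a, Kif20b and Shcbp1 by 0.64 to 1.08. The 0.64 is that of Cit, whose brightest probe lies on the minus strand and carries no RefSeq transcript in the files. Dimmer Cit probes, on the plus strand, gave 0.31 and 0.47.

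**Figure D3:**
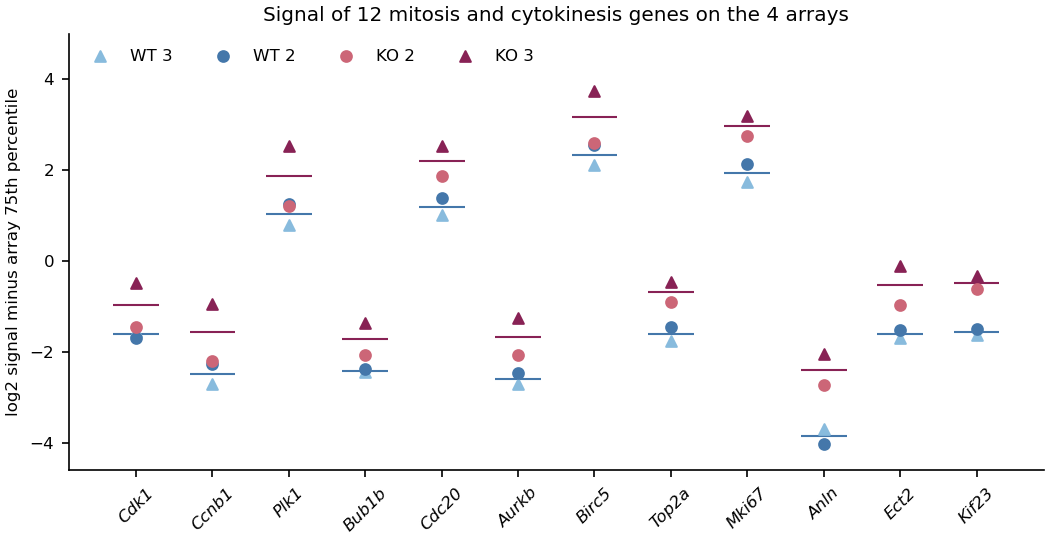
Log2 signal minus the array's 75th percentile (y axis) of 12 mitosis and cytokinesis genes (x axis) on WT 2, WT 3, KO 2 and KO 3, with lines at the mean of each genotype (n = 2 arrays). KO 3 is the highest array for all 12 genes, and KO 2 lies above both WT arrays in 11 of them, the exception being Plk1. Heights of different genes are not comparable.

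The brightest probes of these 12 genes lie on mm9 at chr10:68805423-68807832 (Cdk1), chr13:101548974-101549033 (Ccnb1), chr7:129313220-129313279 (Plk1), chr2:118466830-118466889 (Bub1b), chr4:118105536-118105595 (Cdc20), chr11:68865037-68865096 (Aurkb), chr11:117716959-117717018 (Birc5), chr11:98857244-98858058 (Top2a), chr7:142881591-142881650 (Mki67), chr9:22177635-22177694 (Anln), chr3:26996310-26996369 (Ect2) and chr9:61767733-61768853 (Kif23). Spans longer than the 60 bases of a probe cross an intron or a gap in the alignment.

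Genes that act beside the members had lower median differences, a comparison that was not tested because the members were chosen on this contrast. A list of 93 other mitosis genes had a median difference of 0.39, with 0.14 at number 2 and 0.67 at number 3. Both KO arrays were above both WT arrays for 50 of them, against 13.1% of tested probes, and below for 2, against 10.9%. Foxm1, a transcription factor of late cell cycle genes, was at -1.60 and -1.81 on WT 2 and WT 3, and -0.78 and -0.43 on KO 2 and KO 3, a difference of 1.10 ± 0.25. Mybl2, B-Myb of the MuvB complex, differed by 0.68 ± 0.32. Pttg1, the separase inhibitor securin, differed by 0.06 ± 0.91, with the number-3 arrays above the number-2 arrays in both genotypes. Ube2s, which extends ubiquitin chains on APC/C substrates, had the highest difference of the list at 1.23 ± 0.30, and Dsn1, of the MIS12 kinetochore complex, the lowest at -0.24 ± 0.38. Families within this list were not planned, and that of the APC/C was singled out after its values were seen. The 11 APC/C core subunits lay between -0.15 and 0.16, and 7 cohesin subunits and Pds5 proteins between -0.19 and 0.29. The 3 condensin II subunits lay between -0.03 and 0.36. The 12 further centromere proteins named Cenp lay between 0.01 and 1.0, with a median of 0.69.

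A list of 65 S phase genes had a median difference of 0.475, with 0.18 at number 2 and 0.76 at number 3. Both KO arrays were above both WT arrays for 39 of them, against 13.1% of tested probes. Mcm2, of the replicative helicase, differed by 0.67 ± 0.25, and Pcna, the sliding clamp, by 0.36 ± 0.21. The 6 MCM helicase subunits, a family also not planned, lay between 0.30 and 0.71. Ccne2, cyclin E2, was highest at 1.20 ± 0.32, and Gins4, of the helicase, lowest at -0.02 ± 0.29. Called by limma were 0 genes of either list. How the lists differ from the members was not tested, since the members were chosen on the same contrast.

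Markers of cell types differed between the arrays too, and did so in opposite directions at the 2 numbers. The median of 26 cardiomyocyte markers was 6.74 on WT 2 and 7.99 on KO 2, but 5.36 on WT 3 and 4.69 on KO 3. KO was higher for 25 of the 26 at number 2 and for 0 at number 3, and their summed signal, in units of the array's 75th percentile, ranged from 1790 to 3710 in WT and from 1240 to 6990 in KO. Of 22 fibroblast and myofibroblast markers, 0 were higher in KO at number 2 and 13 at number 3, with summed signals of 1710 to 1730 in WT and 1020 to 2060 in KO. Of 22 macrophage and monocyte markers, 2 were higher at number 2 and 20 at number 3, with sums of 641 to 880 in WT and 379 to 1110 in KO. Every marker of these 3 lists was well above background on all 4 arrays. KO 2 thus had the most cardiomyocyte and the least fibroblast and macrophage marker signal of the 4 arrays, and KO 3 the reverse. The median difference of the mitosis genes was 0.41 at number 2 and 1.42 at number 3, and its relation to these markers was not tested.

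Markers of smaller populations also varied between the arrays. Of 20 endothelial markers 18 were higher in KO at number 2 and 1 at number 3, and the sum was 155 to 165 in WT and 137 to 223 in KO. Of 13 neutrophil markers 2 were higher at number 2 and 5 at number 3 (sums 27.3 to 34.6 in WT, 5.26 to 35.1 in KO), and Elane was at background on every array. Of 16 T and B cell markers 1 was higher at number 2 and 11 at number 3 (sums 7.6 to 8.4 in WT, 2.72 to 19 in KO), and Pax5 was at background throughout. Of 11 erythroid markers 11 were higher at number 2 and 2 at number 3 (sums 167 to 459 in WT, 247 to 571 in KO), and Gata1 and Klf1, which define erythroid precursors, were at background throughout. The part of these cell types in the KO to WT differences of the mitosis genes was not tested.

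**Figure D4:**
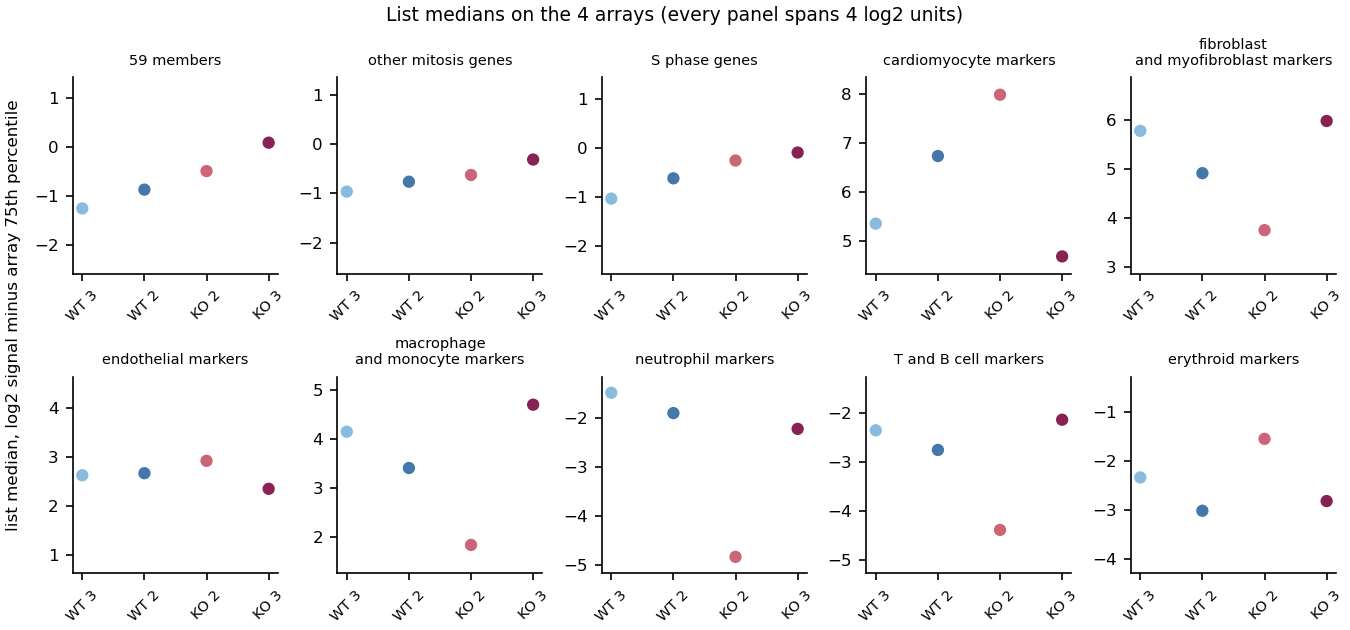
Median log2 signal minus the array's 75th percentile (y axis, 4 log2 units in every panel) of the 59 members and of 9 gene lists on WT 3, WT 2, KO 2 and KO 3 (x axis), 1 point per array. The members step up from -1.25 on WT 3 to 0.09 on KO 3, while the cardiomyocyte median is highest on KO 2 at 7.99 and lowest on KO 3 at 4.69, and the macrophage and monocyte median runs opposite to it.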

How the data were processed

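Left ventricular RNA was hybridised to 4 one-colour Agilent whole mouse genome arrays, 2 KO and 2 WT, grouped by the sample titles. The authors deposited the scanner intensity of each spot from Agilent Feature Extraction 10.7, background-subtracted and spatially detrended within the array, with probes annotated on mm9. A second deposited table holds log2 values from GeneSpring, whose normalization is not given in the sources used here, and 99.9% of them differed by less than 0.01 from log2 intensities after quantile normalization. Control and outlier spots were left out, spots of a probe were averaged, and the log2 processed intensity was shifted by each array's 75th percentile. The arrays' number, 4, limits the precision. A probe was tested if well above background on both arrays of a group, which left 28292 of 41174 probes, with 12876 too dim and 6 lacking a value. The genotypes were compared with limma 3.58.1 in R 4.3.3 (lmFit, eBayes, Benjamini-Hochberg), a step tested on simulated data. No label says that the arrays are separate animals, but the 2 arrays of each group differ in Xist and Ddx3y, so their RNA came from different animals. For a probe not above background on the WT arrays, the fold is a bound from the mean KO signal over the lowest signal well above background on each WT array, or the probe's own if higher. For Ttk it is no strict bound, since the KO 2 value was not well above background either.

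The members and all gene lists were chosen with earlier results of these data known. Values of every array are given for 12 members chosen by name and for the highest and the lowest difference of each role class among genes well above background on all arrays, and for Smc4, chosen after its values were seen. In the other mitosis and S phase lists 5 genes were chosen by name, with the highest and lowest. The alternatives comprised normexp correction of the background (offset 50), quantile or median scaling, the authors' table, other filters, the array number as a block, the mean of a gene's probes, other variance models and leaving out each array.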

Additional observations from a re-analysis of the deposited data

Results flagged for a closer look

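Xist had a log2 processed signal of 14.13 on WT 2 and 13.24 on KO 2, from samples labelled male, where the mean of the negative control spots was 2.31 and 1.94. On WT 3 and KO 3 it read 1.92 and 2.01.

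Plk1, Smc4, Kif2c and Racgap1 were lower in KO at number 2 and higher at number 3, with 1 array of each genotype at a number, and the difference between numbers was not tested. KO minus WT was -0.050 at number 2 and 1.73 at number 3 for Plk1, -0.22 and 0.44 for Smc4, -0.022 and 1.34 for Kif2c, and -0.10 and 1.33 for Racgap1. These are values of the brightest probes. At number 2 a dimmer Racgap1 probe gave 0.18 and a dimmer Smc4 probe -0.12. Under normexp Kif2c and Racgap1 were no longer lower at number 2, under quantile normalization Kif2c was not, and under the median shift Plk1 and Kif2c were not.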

How the results depend on the processing

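No probe and no member was called under any alternative that could be fitted, and the slide or scan as a block could not be fitted, since all arrays share both. Unadjusted p under 0.05 held for 410 probes in the main setting, 1157 under normexp, 602 with the array number as a replicate block, 299 with array weights, 879 by the methods' t-test (0 after adjustment), and 125 to 7275 with 1 array left out. The median member difference of 0.92 stayed between 0.81 and 0.96 under other background correction, scaling, filters, probe averaging and the authors' values, and is 0.92 with the array number as a replicate block, which leaves means as they are. With only 2 pairs of numbers the pairing could not be checked. Leaving out 1 array gave 0.55 to 1.25, the lowest without KO 3, where the cause was not tested. Members with both KO arrays above both WT arrays, 52 in the main setting, numbered 50 to 55 under those alternatives and 53 to 57 with 1 array left out, when 3 arrays overlap less readily. Members with KO below WT numbered 0 throughout, and 0 to 2 with 1 array left out. The median at number 2, 0.41 in the main setting, ranged from 0.39 to 0.47, and that at number 3, 1.42, from 1.21 to 1.43. Normexp moved the median of all tested probes by 0.11, from 0.02 to 0.13, and left 5 members over 2-fold against 22. Of 24 members described array by array, 1 changed sign in 120 values on 4 arrays, Cdca2 at 0.58 with the mean of its probes, and 3 in 96 values with 1 array left out, Espl1 at -0.01, Racgap1 at -0.02 and Smc4 at -0.27 without KO 3.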
